A study of Mus musculus with 6 samples.

Results

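The CXC and CX3C chemokine genes of a mouse aortic cell line were examined, 9 of the 21675 genes in the deposited gene tables, chosen by symbol: Cxcl1, Cxcl2, Cxcl5, Cxcl9, Cxcl10, Cxcl11, Cxcl12, Cxcl16 and Cx3cl1. The cells are described in the labels as an aortic endothelial line (Fn AB+/-) that carries TetOn-SV40, a viral immortalising gene under doxycycline control, and all were plated in 10% FBS/DMEM after doxycycline had been taken away. There were 3 lines: the parental cells (WT), a single cell clone described as having had Ptbp1 deleted by CRISPR (KO), and the KO cells given a human PTBP1 cDNA (Rescue). Each line gave 1 library without TNF and 1 with TNF at 30 ng/mL, so there were 6 libraries, no replicates, and any trait of the one clone cannot be told apart from the CRISPR change. The labels give no treatment time.

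The labels and the names of the deposited files disagree for 4 of the 6 libraries. Files named WT (read from "basal") belong to the library labelled WT, named WT with TNF to that labelled KO, named KO to that labelled Rescue, named KO with TNF to that labelled WT with TNF, named Rescue to that labelled KO with TNF, and named Rescue with TNF to that labelled Rescue with TNF. The grouping by file name is given first, because Ptbp2 and Ccl2 went against the labels. Both genes were read in these same libraries, and Ccl2 is itself a chemokine that TNF turns on. A TNF or KO difference under the file-name groups is therefore not independent of that choice. The grouping by label stands beside it for each test and for the TNF pairs of single libraries. Lines and treatments below are those of the file names wherever "labelled" is not written.

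Chemokines are small secreted or membrane-bound proteins that guide leukocytes. CXC chemokines with a glutamate-leucine-arginine (ELR) motif, here Cxcl1, Cxcl2 and Cxcl5, act on Cxcr2 and draw neutrophils. Cxcl9, Cxcl10 and Cxcl11 lack that motif, act on Cxcr3 of activated T cells and natural killer cells, and are known as interferon-linked genes. Cxcl12 is a homeostatic ligand of Cxcr4, while Cxcl16 and Cx3cl1 are made as transmembrane proteins that can hold leukocytes at the vessel wall or be shed by proteases. TNF acts on chemokine promoters mainly through NF-kB, and interferons act through the interferon-stimulated response element (ISRE).

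The ELR genes Cxcl5 (chr5:90759360-90761624), Cxcl1 (chr5:90891241-90893115) and Cxcl2 (chr5:90903871-90905938) lie on the plus strand of chromosome 5, and Cxcl9 (chr5:92321347-92328079), Cxcl10 (chr5:92346638-92348889) and Cxcl11 (chr5:92359544-92365485) on its minus strand (GRCm38, GENCODE vM21). Cxcl11 is annotated there as a polymorphic pseudogene, and the other 8 genes as protein coding. Cxcl12 (chr6:117168535-117181367), Cxcl16 (chr11:70453983-70459984) and Cx3cl1 (chr8:94772009-94782427) each lie on a chromosome of their own.

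RefSeq promoter sequences (GRCm38.p6) matched 6 of the 9 genes by symbol. Those of Cxcl1 (chr5:90890995-90891214, plus strand), Cxcl2 (chr5:90903649-90903868, plus strand), Cxcl10 (chr5:92348920-92349139, minus strand) and Cxcl9 (chr5:92328110-92328329, minus strand) are shown as the ELR and interferon-linked genes that have an entry. Each runs 5′ to 3′ from 250 to 31 bases before RefSeq's start of the gene, which can lie some bases from the GENCODE start above, and capitals mark matches to the NF-kB consensus or to the ISRE core, searched on both strands.
Cxcl1: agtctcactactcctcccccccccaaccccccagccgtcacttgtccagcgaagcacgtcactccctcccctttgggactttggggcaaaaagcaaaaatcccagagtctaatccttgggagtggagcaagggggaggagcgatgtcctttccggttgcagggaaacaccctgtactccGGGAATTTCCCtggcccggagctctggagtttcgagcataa
Cxcl2: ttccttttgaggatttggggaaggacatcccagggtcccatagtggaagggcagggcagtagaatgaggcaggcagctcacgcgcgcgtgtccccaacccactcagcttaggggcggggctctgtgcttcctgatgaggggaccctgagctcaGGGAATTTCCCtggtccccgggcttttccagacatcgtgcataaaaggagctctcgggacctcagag
Cxcl10: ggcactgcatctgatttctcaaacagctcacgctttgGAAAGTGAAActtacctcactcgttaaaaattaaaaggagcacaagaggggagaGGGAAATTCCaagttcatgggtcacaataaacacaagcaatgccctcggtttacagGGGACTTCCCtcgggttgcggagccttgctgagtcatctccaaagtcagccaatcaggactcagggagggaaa
Cxcl9: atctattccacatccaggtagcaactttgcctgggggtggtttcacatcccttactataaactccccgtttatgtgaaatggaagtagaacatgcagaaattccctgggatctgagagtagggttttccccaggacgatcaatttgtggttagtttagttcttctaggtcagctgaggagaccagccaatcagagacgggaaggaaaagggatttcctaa
In Cxcl1 and Cxcl2 the capitals are 1 palindromic run each, matched on both strands, from 71 to 61 bases before the RefSeq start of Cxcl1 and from 97 to 87 before that of Cxcl2. Cxcl10 holds an ISRE match from 213 to 204 bases before its start and NF-kB matches from 159 to 150 and from 103 to 94. No capitals stand in the Cxcl9 window, and the windows of Cxcl12 and Cx3cl1 held neither motif. Of 32851 RefSeq promoters of this length, 3.45% held the NF-kB consensus, 2.63% the ISRE and 0.103% both. A match is a run of letters and was not tested for binding.

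Library totals ranged from 19598773 to 21626838 estimated reads. Ptbp1, the targeted gene, stood at 236 TPM, a level scaled to gene length and library total, in WT, 270 in WT with TNF, 266 in KO, 275 in KO with TNF, 127 in Rescue and 129 in Rescue with TNF, so its messenger RNA was present in all 6 and was not lower in KO than in WT. Ptbp2, a paralogue that Ptbp1 represses, stood at 128 and 106 TPM in the KO libraries against 20.7 to 45.3 in the other 4. Ccl2, a monocyte chemokine turned on by TNF, was at 1140 to 6020 TPM in the libraries named TNF and 105 to 169 in the others. Of 12 endothelial markers 3 (Eng, Egfl7 and Erg) reached 1 TPM in any library, while the defining genes Pecam1, Cdh5, Kdr and Vwf stayed under 1 TPM in all. Of 10 smooth muscle and fibroblast markers 9 reached 1 TPM, with a summed level of 4830 to 11400 TPM. Of 8 leukocyte markers 2 (Cd68 and Lyz2) reached 1 TPM and Ptprc and Cd3e were listed at 0 in all 6. None of 5 epithelial markers reached 1 TPM.

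Cxcl12 was the most abundant of the 9 genes in every library on the length-scaled TPM scale. It stood at 4251 TPM in WT and 1411 in WT with TNF, at 2417 in KO and 1139 in KO with TNF, and at 2419 in Rescue and 1050.3 in Rescue with TNF. The 3 libraries without TNF were all above the 3 with it. In WT with TNF the order below Cxcl12 ran Cxcl10 (396 TPM), Cxcl1 (304), Cx3cl1 (206), Cxcl16 (118), Cxcl5 (40.4), Cxcl9 (8.77), Cxcl11 (3.15) and Cxcl2 (0.67). In KO with TNF it ran Cx3cl1 (122), Cxcl10 (94.5), Cxcl1 (41.8), Cxcl16 (10.5), Cxcl11 (0.19), and then Cxcl9 and Cxcl2 at 0.10 each, with Cxcl5 listed at 0. With 1 library per group, the order of neighbours carries no spread over samples. The ranks of Cxcl2, Cxcl9 and Cxcl11 in KO with TNF rest on 1 to 3 reads and are not distinguishable at this depth.

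**Figure D1:**
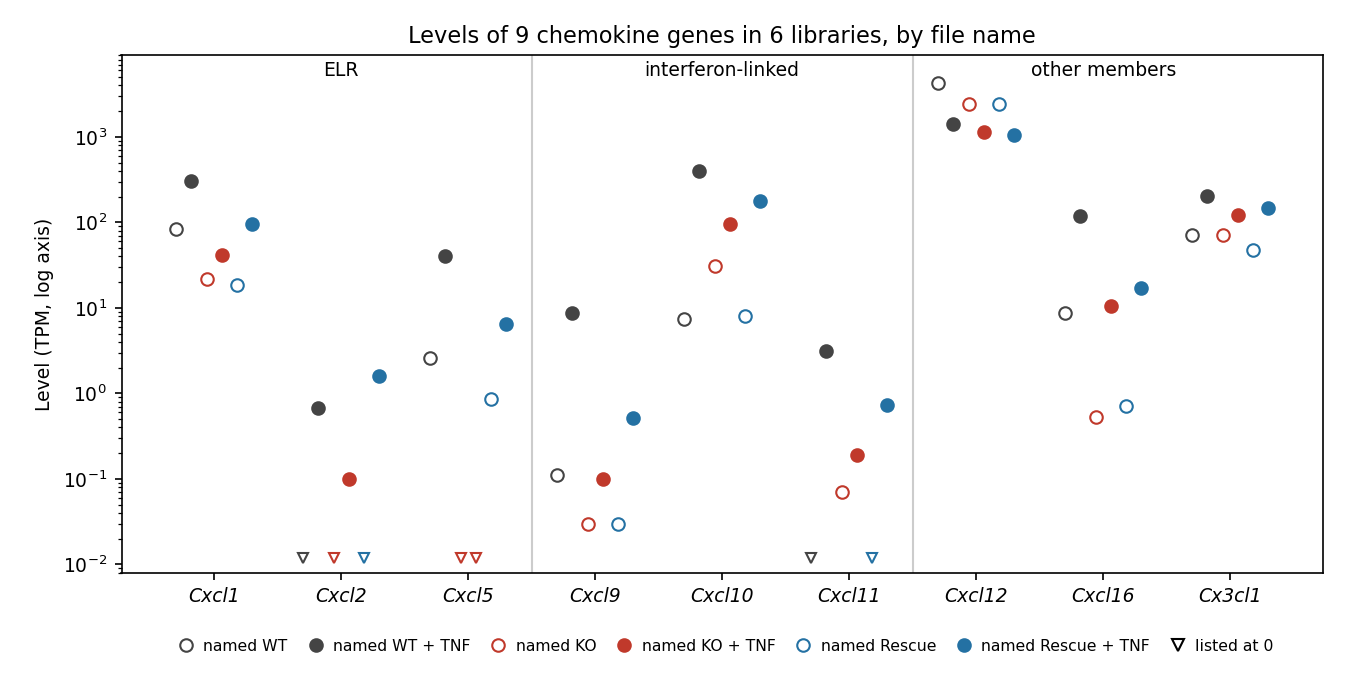
Level of each of the 9 chemokine genes (TPM, log axis) in the 6 libraries, with 1 point per library, filled for TNF and coloured by line as the files are named; triangles mark genes listed at 0. Cxcl12 lies between 1050.3 and 4251 TPM and falls with TNF, whereas Cxcl10 spans 7.37 to 396 TPM.

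Whether TNF changes the chemokines was asked over the 3 lines together. With the file-name groups TNF raised 7 of the 8 members that passed the filter on low counts and lowered Cxcl12, while Cxcl2 did not pass the filter. Among all 12729 genes tested 22.0% passed (11.2% were higher and 10.8% lower), and the median log2 change was 3.81 over the 8 members against -0.01 over all genes. Cxcl9, Cxcl11 and Cxcl5 passed the filter largely through the libraries in which they were high, so this median does not stand for all 9. The test was edgeR's quasi-likelihood test in an additive model of line and TNF with 2 residual degrees of freedom, so its p-values set the TNF effect against how unequal that effect was between lines.

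Among the ELR genes, Cxcl1, a neutrophil attractant, stood at 83.0 TPM in WT and 304 in WT with TNF, at 21.5 and 41.8 in KO, and at 18.5 and 96.6 in Rescue. Its level was higher with TNF in each line, but WT without TNF lay above KO with TNF, so the treatment groups overlapped. Cxcl1 rose by 1.85 ± 0.27 on the log2 scale (SE, adjusted p = 0.0162), or 3.99-fold in WT (95% counting interval 3.66 to 4.36), 2.05-fold in KO (1.70 to 2.48) and 5.51-fold in Rescue (4.63 to 6.60). Here and below the SE was derived from the test, as the log2 change over the root of its F, and intervals of single-library ratios cover counting error only.

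Cxcl5, a further Cxcr2 ligand, had 39 reads in WT and 700 in WT with TNF, 0 and 0 in KO, and 14 and 101 in Rescue. A count of 0 allows up to 0.148 CPM (reads scaled to the library total) in KO and 0.152 in KO with TNF. Cxcl5 rose by 3.70 ± 0.32 (adjusted p = 0.0110), which was 17-fold (12.3 to 24.1) in WT and 8.04-fold (4.57 to 15.2) in Rescue, with no fold to be had in KO. Cxcl2 had 0 reads in each library without TNF and 7, 1 and 15 in WT, KO and Rescue with TNF, at least 2.21-fold higher in WT and at least 5.57-fold in Rescue against a floor of 3 reads per library. Cxcl1, Cxcl2 and the further paralogue Cxcl3 resemble each other in sequence, and the handling of reads shared between them is not stated in the labels, which leaves Cxcl2's few reads uncertain.

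Of the interferon-linked genes, Cxcl10 stood at 7.37 TPM in WT and 396 in WT with TNF, 30.5 and 94.5 in KO, and 8.09 and 177 in Rescue. Every library with TNF was above every library without it. Cxcl10 rose by 3.92 ± 0.86 (adjusted p = 0.0362), 58.6-fold in WT (45.9 to 76.0), 3.27-fold in KO (2.86 to 3.75) and 23.1-fold in Rescue (18.4 to 29.4). Its SE is the second largest of the 8, after that of Cxcl11, and its fold varied most between lines among the members with at least 10 reads in all 6 libraries.

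Cxcl9 had 3 reads in WT and 285 in WT with TNF, 1 and 3 in KO, and 1 and 15 in Rescue. It rose by 5.58 ± 0.67 (adjusted p = 0.0116), and was 89.9-fold higher in WT (30.4 to 438) and 16.7-fold in Rescue (2.57 to 703), with most of its reads in WT with TNF. Cxcl11 had 0 reads in WT and 52 in WT with TNF, 1 and 3 in KO, and 0 and 11 in Rescue, and it rose by 5.46 ± 1.04 (adjusted p = 0.0275). In KO both genes were at or under 3 reads with and without TNF, so no fold is given there. Against the floor, Cxcl11 was at least 16.4-fold higher with TNF in WT and at least 4.08-fold higher in Rescue.

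Both membrane-bound chemokines rose. Cxcl16, a scavenger receptor for oxidised lipids as well as a Cxcr6 ligand, stood at 8.64 TPM in WT and 118 in WT with TNF, at 0.53 and 10.5 in KO, and at 0.71 and 17.1 in Rescue. It was higher with TNF in each line and rose by 4.17 ± 0.16 (adjusted p = 0.00321), the lowest adjusted p of the 8, with folds of 14.9 (13.0 to 17.3) in WT, 21.0 (12.1 to 39.9) in KO and 25.6 (16.0 to 43.7) in Rescue. Cx3cl1, which tethers monocytes that carry Cx3cr1, stood at 70.7 and 206 TPM in WT, 71.2 and 122 in KO, and 47.0 and 147 in Rescue. All 3 libraries with TNF exceeded all 3 without it, and Cx3cl1 rose by 1.42 ± 0.19 (adjusted p = 0.0140). Its folds were 3.18 (3.03 to 3.33), 1.82 (1.72 to 1.91) and 3.31 (3.12 to 3.50) in WT, KO and Rescue.

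Cxcl12 fell by 1.15 ± 0.11 on the log2 scale (adjusted p = 0.00902), to 0.374 of its level in WT (0.369 to 0.379), 0.509 in KO (0.501 to 0.517) and 0.480 in Rescue (0.473 to 0.487). The summed level of 10 smooth muscle and fibroblast markers, carried mostly by Col1a1 and Col1a2, moved the same way, from 11400 to 5930 TPM in WT, 10300 to 6610 in KO and 10800 to 4830 in Rescue. Within that list Dcn went up in each line, from 3.15 to 75.4, 0.460 to 4.29 and 3.09 to 42.8 TPM, and Pdgfra stood at 18.5 and 18.3 in KO and 20.3 and 21.1 in Rescue. The part of these cells' genes in the fall of Cxcl12 was not tested. In these bulk libraries fewer cells of a type and less RNA per cell cannot be told apart.

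**Figure D2:**
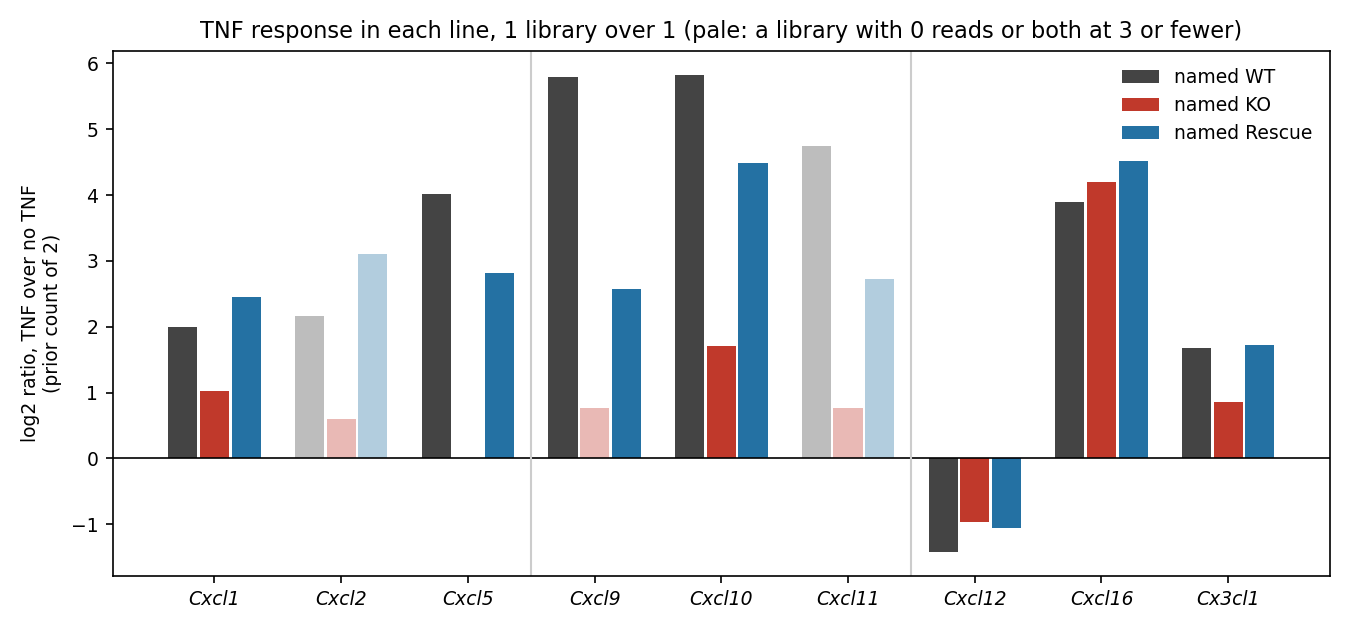
Log2 ratio of the library with TNF over the library without it (prior count of 2) for each member in each line, as the files are named; bars stand for 1 library over 1 and have no error, and pale bars have a library with 0 reads or both at 3 or fewer. Cxcl10 reaches 5.83 in WT, 1.70 in KO and 4.49 in Rescue, while Cxcl16 lies between 3.89 and 4.52 in all 3 lines.

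The TNF call depended most on the libraries named Rescue. Fewer members, and fewer of all genes, passed without either of them, or without the library named WT or that named WT with TNF. Without either library named Rescue the log2 change of Cxcl10 was 3.64 and that of Cxcl16 was 4.04. Leaving out the library named WT with TNF took the log2 change of Cxcl9 to 3.08 (adjusted p = 0.121), of Cxcl10 to 2.96 (0.0743), of Cxcl11 to 3.56 (0.161) and of Cxcl5 to 2.96 (0.0621), and leaving out that named WT took them to 3.11, 2.95, 3.58 and 2.97. Without the library named KO or that named KO with TNF, Cxcl10 was at 5.20 or 5.21 and Cxcl11 at 7.91 or 7.92.

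With the labels' groups 0 of 8 members passed for TNF (adjusted p 0.999 for each), 0 had an unadjusted p under 0.05, and DESeq2 and limma called 0 as well. Between the libraries labelled KO and KO with TNF 8 of the 9 members were at least 2-fold lower with TNF (9.63% of all genes), among them Cxcl10 at 0.0179 of its level (0.0141 to 0.0224), and Cxcl12 was 1.59-fold higher (1.57 to 1.61). In the labelled Rescue pair 8 of 9 members were at least 2-fold higher with TNF (7.91% of all genes), and in the labelled WT pair 2 were higher and 2 lower (7.05% and 11.9%).

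ELR and interferon-linked genes were set side by side within each line, as log2 ratios of single libraries with a prior count of 2 and no test. At least 2-fold rises with TNF were seen for 8 of 9 members in WT (5.74% of all genes), 3 in KO (2.73%) and 8 in Rescue (4.42%). In WT the median log2 ratio was 2.16 for the 3 ELR genes and 5.79 for the 3 interferon-linked genes. In KO the medians were 0.60 and 0.77, where 1 gene of each trio, Cxcl1 or Cxcl10, had more than 3 reads in both libraries. In Rescue they were 2.82 and 2.72. The ELR median less the interferon-linked median was thus -3.63 in WT, -0.17 in KO and 0.10 in Rescue. The KO medians are those of Cxcl2 (0.60) and of Cxcl9 and Cxcl11 (0.77), each with 3 or fewer reads, so -0.17 rests on genes at the floor. Cxcl1 and Cxcl10 stood at 1.03 and 1.70 in KO. Cxcl2, Cxcl5, Cxcl9 and Cxcl11 had 3 or fewer reads in both KO libraries, so no rise could be read for them. The WT median of 2.16 is that of Cxcl2 and the Rescue median of 2.72 that of Cxcl11, each against 0 reads. With such genes set at their bound the medians were 1.99 and 5.79 in WT and 2.48 and 2.57 in Rescue, so the difference was -3.80 in WT and turned to -0.09 in Rescue. On the log2(TPM + 1) scale the differences were -1.28, -0.01 and 1.22, with a larger gap between the groups in Rescue, since that scale compresses Cxcl9 and Cxcl11, which lay under 1 TPM there. By label the ELR and interferon-linked medians, with a prior count of 2, were -0.88 and 1.36 in WT, -4.21 and -5.76 in KO, and 3.11 and 2.52 in Rescue, the last ELR value being 2.33 at its bound.

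The KO clone was compared with WT over both treatments. With the file-name groups 5 of 8 members were lower in KO past the threshold and 0 were higher, where 33.0% of all genes passed and 16.3% were lower. Cxcl5, Cxcl9 and Cxcl11 passed the filter largely through the libraries in which they were high, among them WT with TNF, so this count does not stand for all 9. Cxcl1 was lower by -2.41 ± 0.33 (adjusted p = 0.00869), at 0.264 of WT without TNF (0.222 to 0.313) and 0.136 with it (0.121 to 0.152). Cxcl5, listed at 0 in both KO libraries, was at least 13.4-fold lower than WT without TNF and at least 222-fold lower with TNF (adjusted p = 0.00361). Cxcl16 was lower by -3.67 ± 0.19 (adjusted p = 0.00154), at 0.0623 of WT without TNF (0.0326 to 0.109) and 0.0874 with it (0.0768 to 0.0991).

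Cxcl9 was lower by -5.86 ± 0.75 (adjusted p = 0.00740), which rests on the TNF libraries, 3 reads in KO against 285 in WT. Without the library named WT with TNF it was at -2.78 (adjusted p = 0.261), and without that named KO with TNF at -1.89 (0.383). Cxcl12 was lower by -0.65 ± 0.13 (adjusted p = 0.0213), at 0.546 of WT without TNF (0.540 to 0.552) and 0.743 with it (0.731 to 0.756). Cxcl11 (-3.41 ± 0.99, adjusted p = 0.0530), Cx3cl1 (-0.35 ± 0.23, adjusted p = 0.281) and Cxcl10 (-0.25 ± 1.00, adjusted p = 0.862) did not pass.

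The value of Cxcl10 averages opposite differences. Without TNF it was 4.21-fold higher in KO than in WT (3.21 to 5.61), at 283 against 65 reads, and with TNF it was at 0.235 of WT (0.219 to 0.253), at 900 against 4025 reads. The averaged log2 value was -1.93 without the library named KO and 1.58 without that named KO with TNF, so its direction depended on the library kept. Cxcl10 was the 1 member at least 2-fold higher in KO without TNF, where 3 were lower (5.08% and 8.56% of all genes). With TNF 0 members were 2-fold higher and 7 were lower (6.34% and 10.1%). Cx3cl1 stood at 1.03 of WT without TNF (0.967 to 1.09) and at 0.586 with it (0.564 to 0.610).

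**Figure D3:**
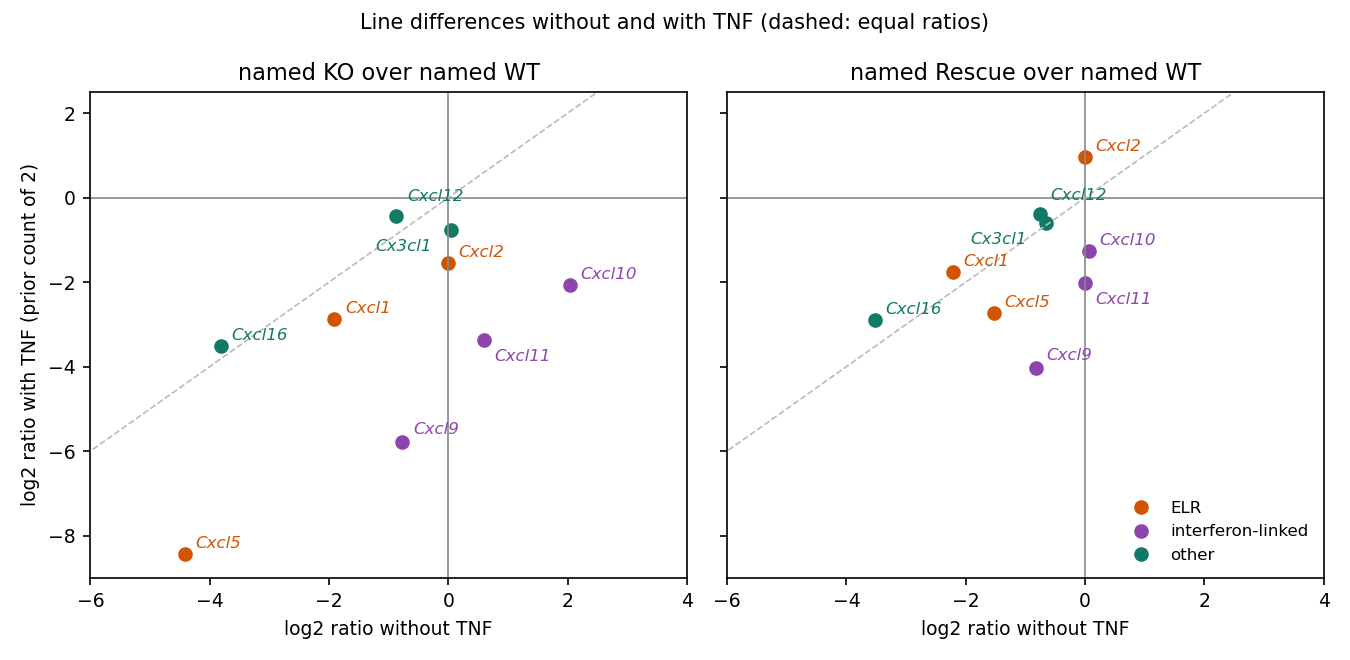
Log2 ratio of KO over WT (left) and Rescue over WT (right) for each member, without TNF on the horizontal and with TNF on the vertical axis (prior count of 2, 1 library over 1, lines as the files are named); the dashed line marks equal ratios. Cxcl10 in KO lies at 2.04 without TNF and -2.08 with TNF, and Cxcl16 lies near the dashed line at -3.81 and -3.51.

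Which members passed in KO against WT depended on the library left out. Without the library named Rescue with TNF Cxcl1 was at -2.42 and Cxcl16 at -3.65. Without that named KO with TNF Cxcl1 was at -1.81. Smooth muscle and fibroblast markers did not move one way between the lines, with sums without TNF of 11400 TPM in WT, 10300 in KO and 10800 in Rescue. Thy1 stood at 77.2 and 41.5 TPM in WT and at 0.24 or less in KO and Rescue, and Pdgfra at 136 and 110 against 18.3 to 21.1, while without TNF Acta2 stood at 913 TPM in WT, 1330 in KO and 1560 in Rescue and Pdgfrb at 171, 204 and 212. Their part in these differences was not tested. With the labels' groups 0 of 8 members passed for KO against WT (adjusted p 1.00 for each), with 0 at an unadjusted p under 0.05 and 0 called by DESeq2 or limma.

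Adding back human PTBP1 was examined by setting Rescue against KO and against WT. Against KO 1 of 8 members passed, the ELR gene Cxcl5, where 20.4% of all genes passed. Cxcl5 had 0 reads in both KO libraries and passed the filter through the WT and Rescue libraries. It was at least 4.22-fold higher in Rescue without TNF and at least 32.9-fold higher with it (adjusted p = 0.0152). Against WT, Rescue was lower for 5 of 8 members and higher for 0, where 24.6% of all genes passed and 12.1% were lower. These 5 were Cxcl1 (-1.93 ± 0.32, adjusted p = 0.0172), Cxcl5 (-2.45 ± 0.31, adjusted p = 0.0155), Cxcl9 (-3.98 ± 0.61, adjusted p = 0.0149), Cxcl12 (-0.58 ± 0.13, adjusted p = 0.0365) and Cxcl16 (-3.12 ± 0.18, adjusted p = 0.00254). Cxcl5 and Cxcl9 passed the filter largely through the libraries in which they were high, so these counts do not stand for all 9 members.

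With TNF, Cxcl1 was 2.17-fold higher in Rescue than in KO (1.91 to 2.48) and at 0.295 of WT (0.272 to 0.320). Cxcl10 with TNF was 1.76-fold higher than in KO (1.62 to 1.91) and at 0.414 of WT (0.390 to 0.439). Without TNF Cxcl10 was at 0.249 of KO (0.191 to 0.321) and at 1.05 of WT (0.746 to 1.48), so it did not differ from WT beyond counting error there. Cxcl16 with TNF was at 1.53 of KO (1.31 to 1.79) and 0.134 of WT (0.120 to 0.148). Cxcl12 did not pass between Rescue and KO (0.08 ± 0.13, adjusted p = 0.693), and its direction with TNF depended on the scale, at 1.03 of KO by scaled reads (1.01 to 1.04) but 1050.3 against 1139 by TPM.

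Leaving out either library named Rescue left 0 members past the threshold in both comparisons, where 0 genes passed at all. Without that named Rescue with TNF, Cxcl5 against WT was at -1.67 (adjusted p = 0.202) and Cxcl9 at -2.15 (0.543). Leaving out the library named WT with TNF took Cxcl5 to -1.64 and Cxcl9 to -0.96 for Rescue against WT. Without that named KO with TNF, the values for Rescue against KO had mixed directions. Cxcl5 was at 6.08 there, but Cxcl10 was at -2.50 and Cx3cl1 at -0.68. With the labels' groups 0 of 8 members passed in either comparison (adjusted p 1.00 for each), with 0 at an unadjusted p under 0.05 and 0 called by DESeq2 or limma.

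Whether KO cells answered TNF unlike the other lines was tested with a term for TNF in KO, against WT and Rescue together. With the file-name groups the rise was smaller in KO for Cxcl10, by -3.50 ± 0.39 on the log2 scale (adjusted p = 0.00411), and for Cx3cl1, by -0.84 ± 0.14 (adjusted p = 0.0235), where 1.70% of 13147 genes passed and 1.20% were lower. Cxcl1 (-1.16 ± 0.24, adjusted p = 0.0509) did not pass, nor did Cxcl16 (0.30 ± 0.44, adjusted p = 0.926) or Cxcl12 (0.27 ± 0.19, adjusted p = 0.784). Cxcl9 (-4.51 ± 2.45) and Cxcl11 (-6.39 ± 3.23) did not pass either, each with 3 or fewer reads in both KO libraries. For Cxcl2 and Cxcl5, with 0 reads in 1 or both KO libraries, the term could not be fitted to a usable value. Thus 2 of the 9 members passed. This model leaves 1 residual degree of freedom and stands on treating WT and Rescue as replicates. On the authors' second quantification 0 of 9 members and 23 genes in all passed. With the labels' groups 0 of 9 members passed (lowest adjusted p = 0.183), although 7 had an unadjusted p under 0.05, where 6.40% of genes did.

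Genes around the chemokines were taken from 6 lists. Of 11 genes of the NF-kB axis 8 rose with TNF and 0 fell (over all genes 11.2% rose and 10.8% fell), with a list median of 0.97 against -0.01 over all genes. They included the inhibitors Nfkbie (3.0), Tnfaip3 (2.32) and Nfkbia (2.20) and the subunit Relb (2.07). Those 4 also passed as smaller rises in KO (over all genes 1.20% were lower by this term), with terms of -1.50 for Nfkbie (adjusted p = 0.00709), -1.70 for Tnfaip3 (0.0332), -1.73 for Nfkbia (0.00156) and -1.36 for Relb (0.00685). Nfkbia went from 84.6 to 558 TPM in WT, from 104 to 200 in KO and from 84.5 to 509 in Rescue.

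Of 13 tested interferon-axis genes 3 rose with TNF and 0 fell (11.2% of all genes rose): Irf1 (1.49, adjusted p = 0.0498), a transcription factor that TNF and interferon both turn on, the receptor chain Ifngr2 (0.79) and the kinase Tyk2 (0.71). For 4 of the 13 the KO term was lower (1.20% of all genes), and they are named here after their values were seen: Irf7 (-2.74, adjusted p = 0.00465), Jak2 (-1.80, 0.0289), Irf1 (-1.66, 0.00709) and Irf9 (-1.25, 0.0133). A lower term here is not always a smaller rise: Irf9 with TNF stood at 101 TPM in KO, below its level without TNF, against 32.9 TPM without and 74.0 with TNF in WT. As with Cxcl10, the level of Irf7 without TNF was higher in KO: it stood at 9.42 TPM in WT and 84.9 in WT with TNF, 112 and 113 in KO, and 5.53 and 24.9 in Rescue. Irf7 did not pass in KO against WT (1.97, adjusted p = 0.110), where 0 of the 13 were higher and 2 lower, a share near the 16.3% of all genes that were lower. Ifnb1, the gene of interferon beta, had at most 4 reads in any library.

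Of 9 genes listed under messenger RNA decay and stability 4 rose with TNF and 0 fell, where 11.2% of all genes rose. They were the ribonuclease Zc3h12a (1.22, adjusted p = 0.0194), Nfkbiz (1.15, 0.0115), the AU-rich element binder Zfp36 (1.07, 0.0221) and the stabiliser Elavl1 (0.31, 0.0276). Nfkbiz encodes an IkB protein and is not itself a factor of decay or stability. Of 5 tested shedding and trimming proteases 1 rose, against the same 11.2%, Mmp9 (4.12, adjusted p = 0.00954), which can trim ELR chemokines. Adam10 (-0.05, adjusted p = 0.581) and Adam17 (0.64, adjusted p = 0.0565), the sheddases of Cx3cl1 and Cxcl16, did not pass. Of 7 other CXC chemokines 2 were tested, and 1, Cxcl15 (-3.79, adjusted p = 0.0346), fell with at most 40 reads in a library, where 10.8% of all genes fell.

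Receptor messenger RNA was scarce. Of 11 receptor genes 2 passed the filter, 0 changed with TNF, and Cxcr3 was listed at 0 in all 6 libraries. The atypical receptor Ackr3 (Cxcr7 in the files), which scavenges Cxcl12 and Cxcl11, is named after its values were seen. Cxcr7 stood at 20.7 and 13.6 TPM in WT, at 1.15 and 1.16 in KO, and at 10.1 and 6.56 in Rescue, so the libraries of the 3 lines did not overlap. It was lower in KO than in WT by -3.86 ± 0.20 (adjusted p = 0.00147), higher in Rescue than in KO by 2.72 ± 0.20 (adjusted p = 0.00522), and lower in Rescue than in WT by -1.13 ± 0.16 (adjusted p = 0.0124). Cxcr4, the signalling receptor of Cxcl12, had at most 3 reads. With the labels' groups 0 genes of these lists passed, as 0 genes passed in all.

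Cxcl12 makes transcripts that share their first exons and differ in the last one, which changes the protein's tail. A short form reads through exon 3 into a near end (alpha), and 2 longer forms splice from exon 3 to a middle acceptor (gamma) or a far acceptor (beta) before a shared far end (GENCODE vM21). A further form of 2894 bases, Cxcl12-204, reads through exon 3 and ends just past the middle acceptor. The 30 bases before each acceptor are shown, because Ptbp1 binds pyrimidine-rich RNA near such sites. They are chr6:117176056-117176085 and chr6:117178553-117178582 (GRCm38, plus strand), read from GENCODE transcripts that run across them, with pyrimidines in capitals.
Middle acceptor: TgaTTaaTggTTCTaCTaaTTTTaTCTaag
Far acceptor: TTaaTgTgTCTCCTCTgTTCTTgTCaaCag
The first holds 17 pyrimidines of 30 and the second 20 of 30. These are the letters of the sites, and binding was not measured.

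Junction reads from exon 3 to the far acceptor, per 100 reads of the junction from exon 2 to exon 3, were 1.95 in WT (95% exact binomial interval 1.67 to 2.27) and 2.04 in WT with TNF (1.59 to 2.59). They were 0.929 in KO (0.697 to 1.21) and 0.736 in KO with TNF (0.449 to 1.14), and 2.65 in Rescue (2.23 to 3.12) and 2.52 in Rescue with TNF (1.91 to 3.27). Both KO libraries lay below the other 4 with intervals that did not overlap theirs, whereas the intervals of both WT libraries overlapped those of both Rescue libraries. Within each line the intervals with and without TNF overlapped, while the gene's level fell with TNF in each.

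In the authors' transcript estimates the far-end forms (beta and gamma together) took 28.8% and 34.1% of the gene's reads in WT without and with TNF, 18.6% and 21.3% in KO, and 41.4% and 46.2% in Rescue. Cxcl12-204 took from 3.51% in KO to 6.98% in Rescue with TNF, so the far-end share is not all that alpha leaves. These are shares of reads and not of molecules, since the far-end forms run to 5627 and 3132 bases against 1878 for alpha. By junctions the far acceptor had 1.95 reads per 100 in WT, so the measures differed widely in size. The order KO, WT, Rescue was the same by junctions and by transcripts, from the same reads, although the junction intervals of WT and Rescue overlapped. The middle acceptor's share of downstream junction reads was 5.03% (2.32 to 9.33) and 5.48% (1.51 to 13.4) in WT, 23.9% (14.6 to 35.5) and 16.7% (4.74 to 37.4) in KO, and 24.5% (18.6 to 31.2) and 26.6% (17.3 to 37.7) in Rescue. With 4 to 47 reads at the middle acceptor, KO and Rescue could not be told apart by this share. By label, the far-end value was 1.95 in the library labelled WT, 2.04 in that labelled KO and 0.929 in that labelled Rescue.

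**Figure D4:**
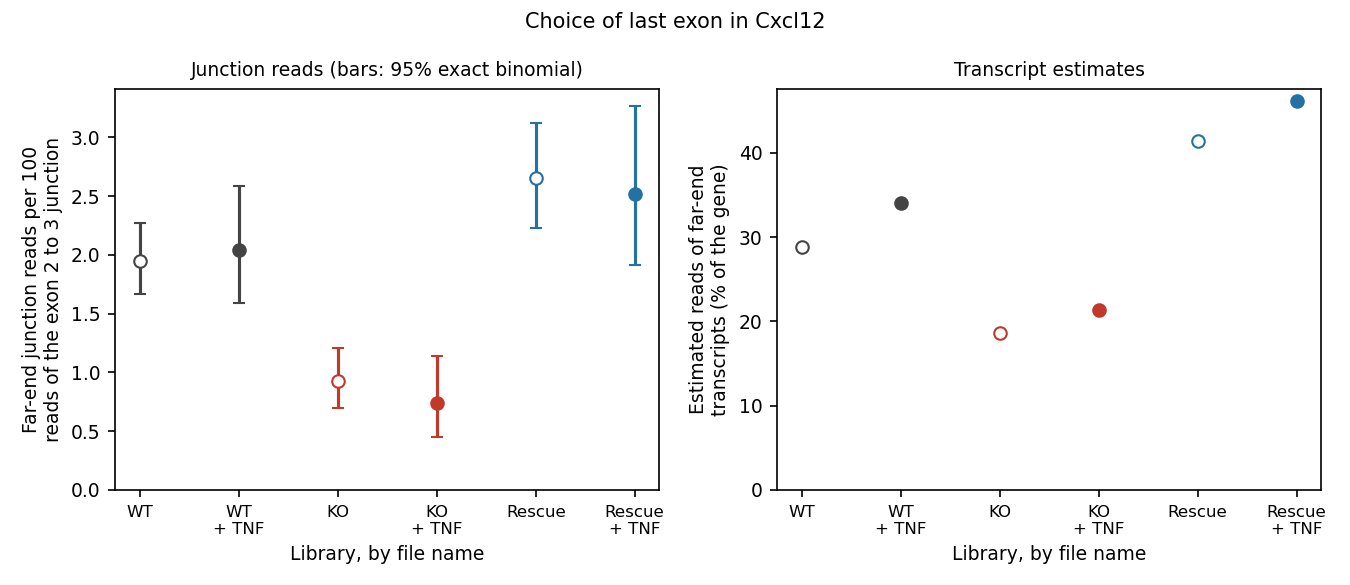
Use of the far last exon of Cxcl12 in each library, as the files are named: left, junction reads to the far acceptor per 100 reads of the exon 2 to exon 3 junction, with 95% exact binomial intervals; right, the share of estimated reads in far-end transcripts (%), with no interval. The KO libraries are lowest on the left at 0.929 and 0.736 and on the right at 18.6% and 21.3%.

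No other splicing difference among the members was seen at exons deep enough to read. Of 9 cassette nodes with at least 20 reads in all 6 libraries, in 4 members, 7 had a percent-spliced-in fraction of 1 in each library and 2, both in Cx3cl1, had 0. Retained-intron fractions lay between 0.0581 and 0.275 over 3 introns of Cxcl1 and between 0.0162 and 0.05 at 1 intron of Cxcl10.

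Genes with the most similar profile over the 6 libraries, by Pearson's r with the mean standardised profile of each trio and out of 12721 genes, were Ptpn2 (0.999), Map2k6 (0.998) and Dusp16 (0.997) for the ELR genes. For the interferon-linked genes they were Rab11fip1 (0.994), Ch25h (0.993) and 5133401N09Rik (0.992). These are descriptions over 6 libraries that share lines and treatments.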

How the data were processed

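Messenger RNA libraries of 3 lines, each without and with TNF, used a SMARTER kit per the labels' protocols. RSEM expected counts and TPM were deposited per gene, the tool being named by the submitters' processing notes without a version. Aligner, build and strand: not given in the sources used here. The files named KO (labelled Rescue) hold values per transcript, which were added up by gene. A second set of files, deposited by the authors and described per the file headers, holds estimated counts and a score per gene and transcript, junction read counts, and percent-spliced-in values as a fraction. Node coordinates matched GENCODE vM21, hence GRCm38.

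Expected counts were rounded and tested with edgeR 4.0.16 (filterByExpr, TMM, quasi-likelihood, R 4.3.3) with Benjamini-Hochberg adjustment over 12729 genes and a threshold of 0.05. Alternatives used DESeq2 1.42.0, DESeq2 size factors, no filter, the second quantification, limma 3.58.1 on log2(TPM + 1), and each library left out. Simulated 2-fold and 4-fold changes were recovered at 95.5% and 99.5% for TNF and at 91.4% and 99.5% for KO. They were set in 196 to 200 genes among 12561 to 12573, with 6 to 10 false calls per run. The simulated counts had a fixed spread and purely additive effects, unlike these data, so the shares do not carry over to them. Single-library folds are CPM ratios on TMM-scaled totals, with exact conditional intervals at 95% and a floor of 3 reads. Folds against that floor have no interval. With no replicate cultures, p-values say nothing of culture-to-culture spread. Members and lists were chosen with earlier results of these data known. Besides the members, at most 4 genes of each list were named, those with the largest TNF change past the threshold, except where said. Older symbols were matched through RefSeq. Protein sequences were not used here.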

Additional observations from a re-analysis of the deposited data

Results flagged for a closer look

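By file name, the TNF response of KO differed from that of WT and Rescue for Cxcl10 (-3.50 on the log2 scale, adjusted p = 0.00411) and for Cx3cl1 (-0.84, adjusted p = 0.0235) by edgeR's test of the term itself. Cxcl10 was 4.21-fold higher in KO than in WT without TNF and at 0.235 of WT with TNF. It was at 0.249 of KO in Rescue without TNF and 1.76-fold higher with TNF. Cx3cl1 in Rescue was at 0.618 of KO without TNF and at 1.13 with TNF. These opposite directions rest on 1 library a group, and the difference between the ratios of each such pair was not tested on its own.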

How the results depend on the processing

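Libraries are given by file name. Of 379 single-gene values under other settings 287 kept direction and side of the threshold, 58 lost the threshold, 16 gained it and 18 reversed, and 0 of the reversed ones had passed in the main analysis. For TNF the 8 members called became 5 by limma and 0 to 9 with 1 library left out. For KO against WT the 5 became 3 by limma and 3 to 8. For Rescue against KO the 1 became 2 on the second quantification, 0 by limma and 0 to 3. For Rescue against WT the 5 became 6 by DESeq2, Cx3cl1 being added, 2 by limma and 0 to 8. The 2 members with a smaller TNF response in KO became 3 with no filter, Cxcl1 being added, and 0 on the second quantification. The ELR less interferon-linked medians became -1.28, -0.01 and 1.22 in WT, KO and Rescue on log2(TPM + 1). With the labels' groups the count stayed at 0 under each setting run. Reversed values in KO against WT were Cxcl10 at 0.17 by DESeq2 and, with 1 library left out, Cxcl10 (range -1.93 to 1.58), Cxcl11 (-3.98 to 2.42) and Cx3cl1 (-0.78 to 0.06), all 3 positive without KO with TNF, and Cxcl10 and Cxcl11 also without WT with TNF. In Rescue against KO they were Cxcl12 at -0.06 by limma and, with 1 library left out, Cxcl1 (-0.14 to 1.02), Cxcl9 (-2.16 to 3.69), Cxcl10 (-2.50 to 1.00), Cxcl11 (-4.58 to 1.82), Cxcl12 (-0.05 to 0.22) and Cx3cl1 (-0.68 to 0.16). In Rescue against WT they were Cxcl10 (-1.72 to 1.19) and Cxcl11 (-3.34 to 2.77), positive without WT with TNF. Cxcl16 in the KO response was at -0.08 on the second quantification. The cause was not tested. Fits with 1 library left out assume that the lone library of a line varies like the others. In them that line no longer informs the TNF change. Leaving out either library of a line is thus nearly the same TNF fit and no separate check. The model with a KO term was not fitted without a library since no residual would remain. Pairing was by line only, since the additive model compares TNF within lines. Each group has 1 library and the labels give no shared replicate numbers, so no pairing of cultures was possible. Depth limits Cxcl2, Cxcl9 and Cxcl11, which had 3 or fewer reads in each library without TNF.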
